A study of Mus musculus with 6 samples.

Results

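The 10 mouse genes described here restrain the small GTPase Ras or help to do so, and were followed in a comparison of leukemic and control mice. They are the Ras GTPase-activating protein (GAP) genes Nf1, Rasa1, Rasa2, Rasa3, Rasa4, Rasal3 and Dab2ip, and the Spred genes Spred1, Spred2 and Spred3, taken by symbol from GENCODE vM21 and matched to the Ensembl identifiers of the count tables. All 10 were found among the 46078 genes of each table, and all 10 passed the filter on low counts. RNA was sequenced from 3 libraries labelled JMML, for juvenile myelomonocytic leukemia, and from 3 libraries labelled WT, given as wild type. JMML is a blood cancer of small children with excess monocytic and granulocytic cells. The series title places these mice in a model of sustained fetal blood formation, and the labels name no altered gene, driver line, tissue, strain or age, so which allele the JMML mice carry, and what the WT mice share with it, is not known from the sources used here.

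Ras is active while it holds GTP. Exchange factors load it with GTP, and GAPs end the signal by speeding up its hydrolysis. Neurofibromin, the product of Nf1, is such a GAP, and Spred proteins bring it to the membrane where Ras sits. In children, inherited or acquired loss of NF1 is among the known causes of JMML, and loss of SPRED1 function causes a milder relative of neurofibromatosis (both known from human genetics). An RNA level does not report GAP activity, and a point mutation or small deletion in one of these genes need not change its count.

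Nf1 and all 3 of its Spred partners were lower in JMML, whereas most of the other GAP genes were not called. By the quasi-likelihood test of edgeR (Benjamini-Hochberg adjusted over 18097 genes), 5 of the 10 genes were lower in JMML at an adjusted p under 0.05, against 13.8% of all genes tested. They were Nf1, Dab2ip, Spred1, Spred2 and Spred3. Of 19 other settings, the call held in 19 for Dab2ip, 18 for Nf1, 14 for Spred2, 8 for Spred3 and 7 for Spred1. With the identifier letter as a covariate or in the libraries with the letter M, no Spred gene was called. None of the 10 was called higher in this test, against 12.4% of all genes tested; 1 of the 10, Rasa2, was higher at an unadjusted p under 0.05, and DESeq2 and limma-voom each called it higher. The median log2 fold change, JMML over WT, was −0.36 over the 10 genes and −0.02 over all genes tested. In 6 of the 10 the CPM values of the groups did not overlap, 5 lower and 1 higher in JMML, against 47.5% of all genes tested (24.6% lower, 22.9% higher). With the identifier letter as a covariate, 2 of the 10 were called lower and 0 higher, against 6.91% and 5.35% of all genes. In the 4 libraries whose identifiers carry the letter M, 2 were called lower and 0 higher, against 6.44% and 5.02%. With library totals alone as the scaling, 6 were called lower and 0 higher, against 19.1% and 7.07%. With a length offset as fitted, described with exon length, 1 was called lower and 1 higher, against 9.85% and 20.9%. With that offset centred, 4 were called lower and 1 higher, against 12.6% and 12.9%. All 10 genes lie in deciles 7 to 10 of exon length, where 14.9% to 25.1% of genes tested were called lower.

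Totals lay between 91976512 and 108395459 counts in JMML and between 47096464 and 61656272 in WT. Values below are CPM, counts scaled to the library total after TMM normalization, unless a length scale is named. A letter closes each sample identifier: F for the first 2 JMML replicates, M for the remaining JMML library and all of WT, so it differs partly along with the group. A fit with the letter as a covariate thus draws the group difference from JMML replicate 3 against WT alone, as does the fit in the M libraries. JMML replicate 3 and WT replicate 3 share an identifier prefix. Whether each replicate was its own animal is not stated, and the spread behind the p-values may thus be technical in part. The labels do not say whether cells were sorted. In RNA of mixed cells, fewer cells of a type and less RNA per cell cannot be told apart.

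Bases upstream of Nf1 and of its best expressed partners are shown because these genes were lower together. Each sequence comes from RefSeq (GRCm38.p6), reads 5′ to 3′ on the gene's strand, begins 250 bases before the RefSeq start and ends at that start or at the first base that GENCODE vM21 places in an exon of the gene. They lie at chr11:79339642-79339692, chr2:117120821-117121070 and chr11:19924192-19924374, all on the plus strand. Capitals mark the GC box GGGCGG and the ETS-type element CCGGAAG on either strand.
Nf1: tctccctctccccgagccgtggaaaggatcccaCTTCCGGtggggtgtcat
Spred1: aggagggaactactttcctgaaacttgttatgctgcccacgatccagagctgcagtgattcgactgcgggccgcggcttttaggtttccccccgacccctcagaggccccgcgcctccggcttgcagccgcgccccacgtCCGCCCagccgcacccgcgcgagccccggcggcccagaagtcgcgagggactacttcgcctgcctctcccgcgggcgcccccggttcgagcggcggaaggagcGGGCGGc
Spred2: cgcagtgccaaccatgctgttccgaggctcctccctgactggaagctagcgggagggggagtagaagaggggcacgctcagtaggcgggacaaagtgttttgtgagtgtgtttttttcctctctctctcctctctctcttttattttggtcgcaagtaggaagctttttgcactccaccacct
Over the whole window of 250 bases before the RefSeq start, a GC box occurred in 32.7% and the ETS-type element in 6.91% of 32851 windows in the table. The Nf1 window held 1 ETS-type element and 0 GC boxes. The Spred1 window held 2 GC boxes, the Spred2 window 1, and neither held the ETS-type element. The windows of Nf1, Spred1 and Spred2 had 21, 31 and 12 CpG pairs, against a median of 6 over all windows. Rasa2, which was not lower, had 2 GC boxes and 24 CpG pairs, and Rasa1, which was not called, also held 1 ETS-type element.

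Nf1 (ENSMUSG00000020716) lies on the plus strand of chromosome 11 at 79339693 to 79581612 (GRCm38) and has 15850 exonic bases. It had 30.5, 32.2 and 27.6 CPM in JMML replicates 1, 2 and 3, against 55.1, 72.2 and 51.8 CPM in WT replicates 1, 2 and 3. Every JMML library lay below every WT library. The level was 30.1 ± 2.30 CPM in JMML and 59.7 ± 10.96 CPM in WT (SD, n = 3 each), and the log2 fold change was −0.99 ± 0.15 (SE; adjusted p = 0.00614, edgeR). Its transcript was still present in every JMML library, at 2498 to 3384 counts. Its call held when any single library was left out. The log2 fold change was −1.11 with the identifier letter as a covariate and −1.07 in the 4 libraries with the letter M. In both of these fits the group difference rests on JMML replicate 3 alone, the lowest library for Nf1. The call ended with a length offset as fitted (−0.42, adjusted p = 0.0770) and held at a smaller size with that offset centred (−0.64, adjusted p = 0.0130), both described with exon length.

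Spred1 (chromosome 2, 117121374 to 117182279), the partner known from human disease, had 42.8, 45.8 and 38.0 CPM in JMML, against 60.7, 64.4 and 50.2 CPM in WT. Its log2 fold change was −0.47 ± 0.14 (adjusted p = 0.0408, edgeR), the smallest of the 5 called. The groups did not overlap, but the call ended without any single library except WT replicate 3 (−0.52 to −0.38 without the others), with no filter on low counts (−0.38, adjusted p = 0.130), with the replicate number as a block (adjusted p = 0.0551), with the letter (−0.62, adjusted p = 0.0845) and in the M libraries (−0.58, adjusted p = 0.112).

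Spred2 (chromosome 11, 19924375 to 20024026), which like Spred1 damps signals from growth factor receptors to ERK, had 13.6, 16.4 and 12.9 CPM in JMML, against 26.2, 28.7 and 20.7 CPM in WT. All JMML values lay under the lowest WT value, with a log2 fold change of −0.82 ± 0.17 (adjusted p = 0.0152, edgeR). The call ended without WT replicate 1 (−0.74, adjusted p = 0.0516) or WT replicate 2 (−0.72, adjusted p = 0.0587), with the letter (−0.97, adjusted p = 0.0546) and in the M libraries (−0.93, adjusted p = 0.0668).

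Spred3 (chromosome 7, 29158829 to 29170411) was scarce in both groups, with 28, 70 and 51 counts in JMML and 65, 94 and 80 counts in WT. In CPM these were 0.342, 0.666 and 0.561 in JMML, against 0.9998, 1.80 and 1.38 in WT. The log2 fold change was −1.40 ± 0.39 (adjusted p = 0.0350, edgeR), and the call ended when any single library was left out (−1.60 to −1.16), with counts thinned to equal totals (−1.31, adjusted p = 0.0541), with the letter (−1.31, adjusted p = 0.191) and in the M libraries (−1.27, adjusted p = 0.165). Spred3 shares 202 exonic bases with Ggn on the opposite strand, which had 16 to 58 counts per library, and the strand setting of the counting is not given in the sources used here, so its small counts are uncertain.

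Within the groups, Nf1 and its partners kept a similar order of libraries. Among JMML libraries, replicate 2 was the highest for Nf1, Spred1, Spred2 and Spred3, and replicate 3 the lowest for Nf1, Spred1 and Spred2. Among WT libraries, replicate 2 was the highest for all 4 genes, and replicate 3 the lowest for Nf1, Spred1 and Spred2. This order was not particular to these genes. Cbl, an adaptor gene, and Sos2, an exchange factor gene, had it in both groups and were not called. Cbl had 173.1, 222.3 and 160.0 CPM in JMML, against 185.4, 219.0 and 174.5 CPM in WT. Sos2 had 58.4, 59.8 and 49.3 CPM in JMML, against 60.6, 71.5 and 55.5 CPM in WT. The 3 Spred genes together came to 56.8, 62.8 and 51.4 CPM in JMML, against 87.9, 94.9 and 72.3 CPM in WT.

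**Figure D1:**
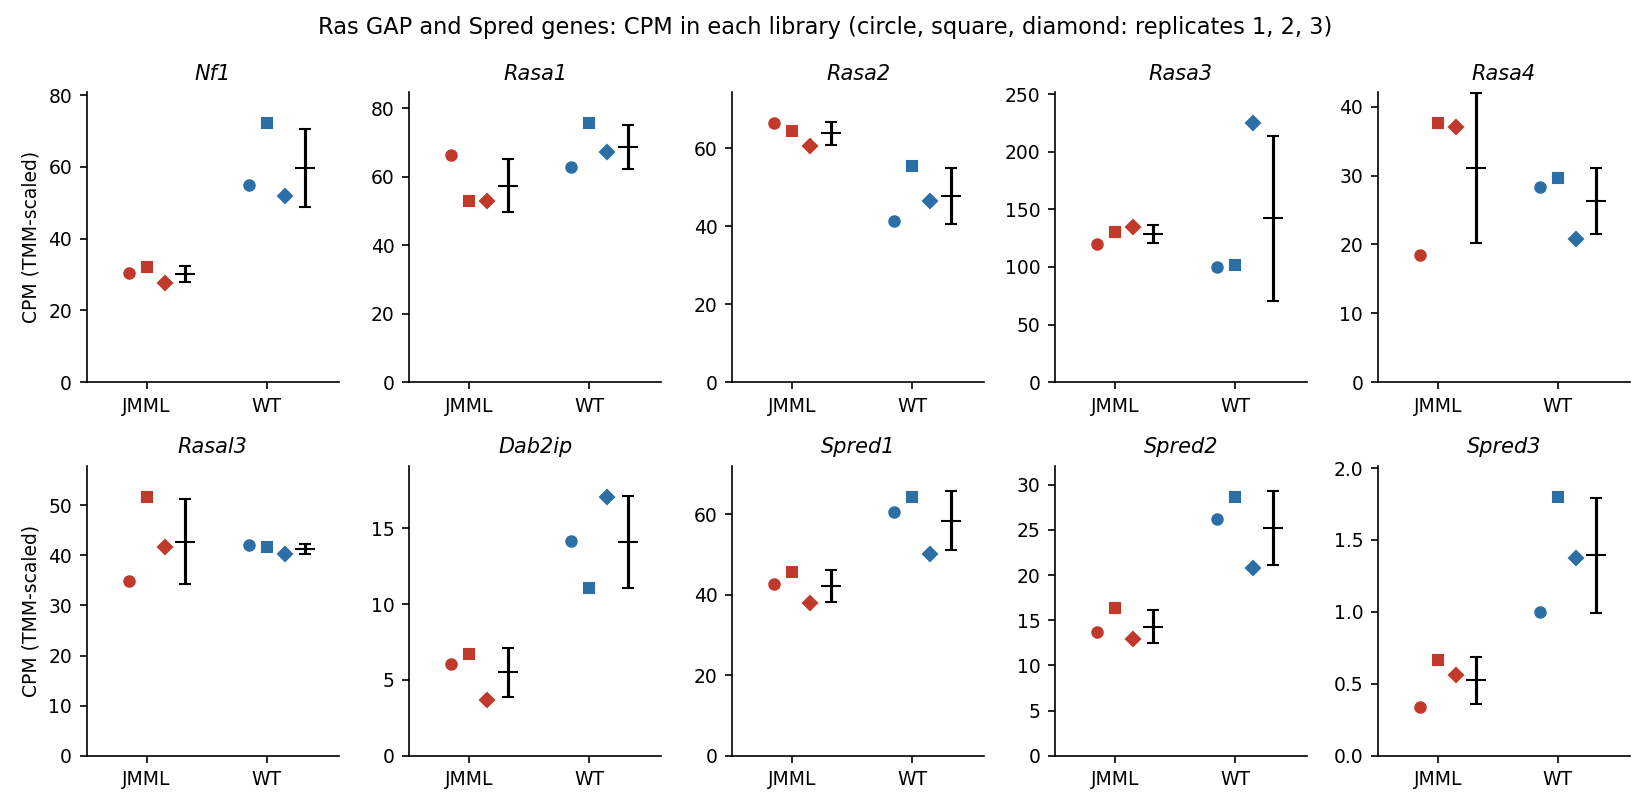
CPM of the 10 genes in each library, JMML on the left and WT on the right of each panel, with mean ± SD in black (n = 3 each); the vertical axes start at 0 and differ between genes. JMML libraries lie below all WT libraries for Nf1, Dab2ip and the Spred genes, and above them for Rasa2. The ranges of the groups overlap for Rasa1, Rasa3, Rasa4 and Rasal3.

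Dab2ip (chromosome 2, 35558266 to 35730994) encodes a GAP that also acts in TNF receptor signalling and is often silenced in human tumours. It had 6.05, 6.74 and 3.67 CPM in JMML, against 14.1, 11.1 and 17.1 CPM in WT. The groups were apart, with JMML replicate 3 the lowest library. Dab2ip had a log2 fold change of −1.36 ± 0.27 (adjusted p = 0.0129, edgeR), and the call held in all 19 alternative settings (−1.94 to −0.96).

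Rasa2 (chromosome 9, 96539300 to 96631617), a GAP with membrane-binding C2 and PH domains, was the one gene of the 10 with every JMML library above every WT library. It had 66.5, 64.4 and 60.7 CPM in JMML, against 41.3, 55.4 and 46.4 CPM in WT. The log2 fold change was 0.42 ± 0.13 and missed the threshold (adjusted p = 0.0529, edgeR). It passed in 8 of 19 other settings, among them the DESeq2 Wald test (0.42, adjusted p = 0.0322), limma-voom (0.43, adjusted p = 0.0469) and the fit without WT replicate 2 (0.54, adjusted p = 0.0450), and did not pass with the letter (0.35, adjusted p = 0.268) or in the M libraries (0.39, adjusted p = 0.237).

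Rasa1 (chromosome 13, 85214780 to 85289130), the first Ras GAP to be purified, had 66.5, 52.8 and 53.0 CPM in JMML, against 62.9, 75.7 and 67.3 CPM in WT. JMML replicate 1 lay within the WT range, and the log2 fold change of −0.26 ± 0.13 was not called (adjusted p = 0.190, edgeR). It passed the threshold in 1 setting, with library totals alone as the scaling (−0.45, adjusted p = 0.0440), which moved the median of all genes by −0.18.

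Rasa3 (chromosome 8, 13566948 to 13677603), a GAP of Ras and Rap1 known from mice for its part in platelets and red cells, was the most abundant of the 10. It had 120.1, 130.2 and 135.1 CPM in JMML, against 99.7, 101.9 and 225.0 CPM in WT. WT replicate 3 stood far above the other WT libraries, and JMML lay between. The log2 fold change was −0.15 ± 0.31 (adjusted p = 0.750, edgeR) with WT replicate 3 and 0.39 without it (adjusted p = 0.0782), so the sign of this difference rests on that library.

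Rasa4 (chromosome 5, 136083916 to 136111860) encodes a GAP that calcium recruits to the membrane. It had 18.5, 37.6 and 37.1 CPM in JMML, against 28.3, 29.7 and 20.8 CPM in WT. JMML replicate 1 was the lowest library of all and the other 2 JMML libraries the highest. The log2 fold change was 0.24 ± 0.28 (adjusted p = 0.554, edgeR), and single libraries moved it both ways. It was 0.52 without JMML replicate 1 (adjusted p = 0.0869), 0.0983 without JMML replicate 2, 0.125 without JMML replicate 3 and 0.146 without WT replicate 3.

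Rasal3 (chromosome 17, 32390659 to 32403583), a GAP of blood cells described in mouse T cells, had 34.8, 51.7 and 41.7 CPM in JMML, against 42.1, 41.6 and 40.2 CPM in WT. JMML replicate 1 lay below the WT libraries, which were close to each other, replicate 2 above them and replicate 3 within their range. The log2 fold change was 0.05 ± 0.16 (adjusted p = 0.838, edgeR). A p that misses the threshold does not show that a level was equal in both groups.

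**Figure D2:**
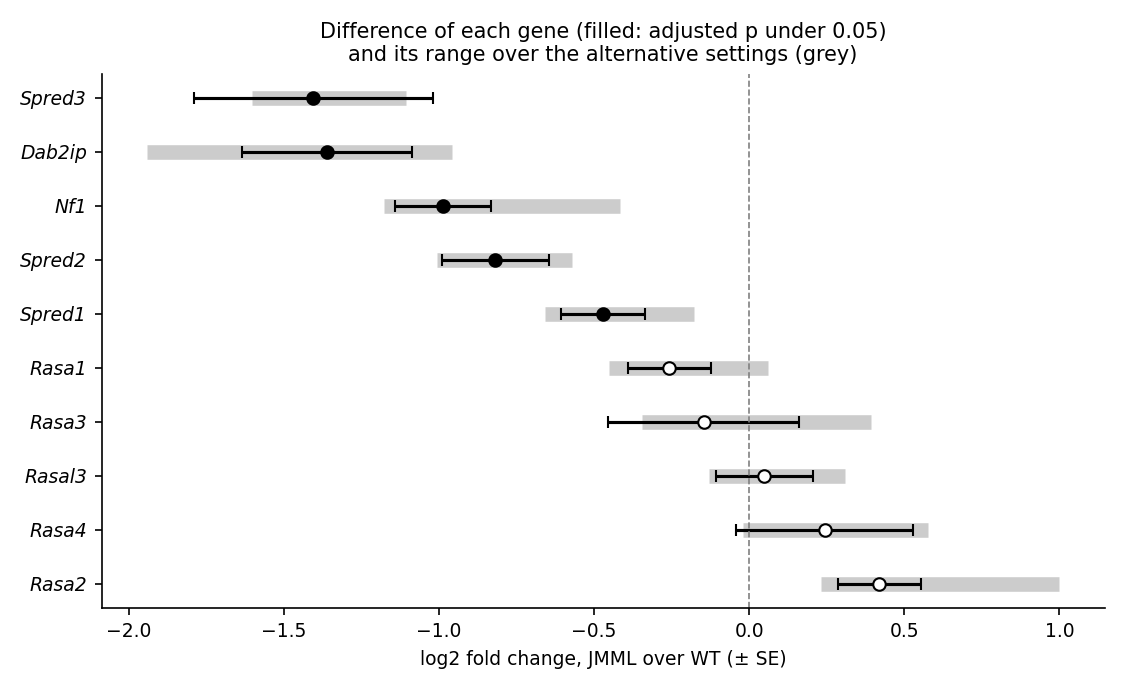
Log2 fold change, JMML over WT, of the 10 genes with its SE (points and bars; filled points passed an adjusted p under 0.05) and the range over 19 other settings (grey). The 5 filled points lie between −1.40 and −0.47, and the grey ranges of Rasa1, Rasa3, Rasa4 and Rasal3 reach both sides of 0.

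Exon length is set beside these values because long transcripts were lower in JMML across the whole table. By deciles of exon length, the median log2 fold change of all genes tested was 0.16 in the shortest decile and −0.28 in the longest. The share called lower was 5.67% in the shortest and 25.1% in the longest. Nf1 and Rasa2 have almost the same length over the union of exons, 15850 and 15856 bases, and both belong to the longest decile. Nf1 lay 0.71 below the median of that decile and Rasa2 0.70 above it (log2). In that decile 22.6% of genes lay lower than Nf1 and 89.9% lower than Rasa2. Of the other genes called, Dab2ip (8366 bases) lay 1.23 below the median of its own decile, Spred3 (6218 bases) 1.32 below, Spred2 (4619 bases) 0.79 below and Spred1 (6784 bases) 0.39 below. In their own deciles, 11.9% of genes lay lower than Dab2ip, 10.4% lower than Spred3, 20.5% lower than Spred2 and 27.8% lower than Spred1.

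The fit was repeated with the length trend taken out of each library by a loess offset. As fitted, the offset moved the median of all genes by 0.23, 9.85% of genes were called lower and 20.9% higher, and of the 10 genes 1 was called lower, Dab2ip (−1.02, adjusted p = 0.0194), and 1 higher, Rasa2 (0.9992, adjusted p = 0.00244). Nf1 was then at −0.42 (adjusted p = 0.0770), Spred1 at −0.18 (adjusted p = 0.397), Spred2 at −0.57 (adjusted p = 0.0520) and Spred3 at −1.11 (adjusted p = 0.0566). With the offset centred in each library, so that the median moved by 0.01, 12.6% of genes were called lower and 12.9% higher. Nf1 (−0.64, adjusted p = 0.0130), Dab2ip (−1.22), Spred2 (−0.79) and Spred3 (−1.35) were then called lower, Rasa2 higher (0.78, adjusted p = 0.00420), and Spred1 was not called (−0.39, adjusted p = 0.0687).

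This pair can also be compared inside each library, where scaling cancels. Only the union of exons is of near-equal length: the longest annotated transcript has 11917 bases for Nf1 and 6579 bases for Rasa2, so transcript length is not held fixed. Nf1 had 0.459, 0.4999 and 0.455 counts per count of Rasa2 in JMML, against 1.33, 1.303 and 1.116 in WT. JMML libraries thus held fewer Nf1 than Rasa2 counts, and WT libraries more. The log2 ratio differed by −1.40 (exact permutation test, two-sided p = 0.1, the smallest that 3 against 3 allows), and this pair was chosen after its values were seen.

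**Figure D3:**
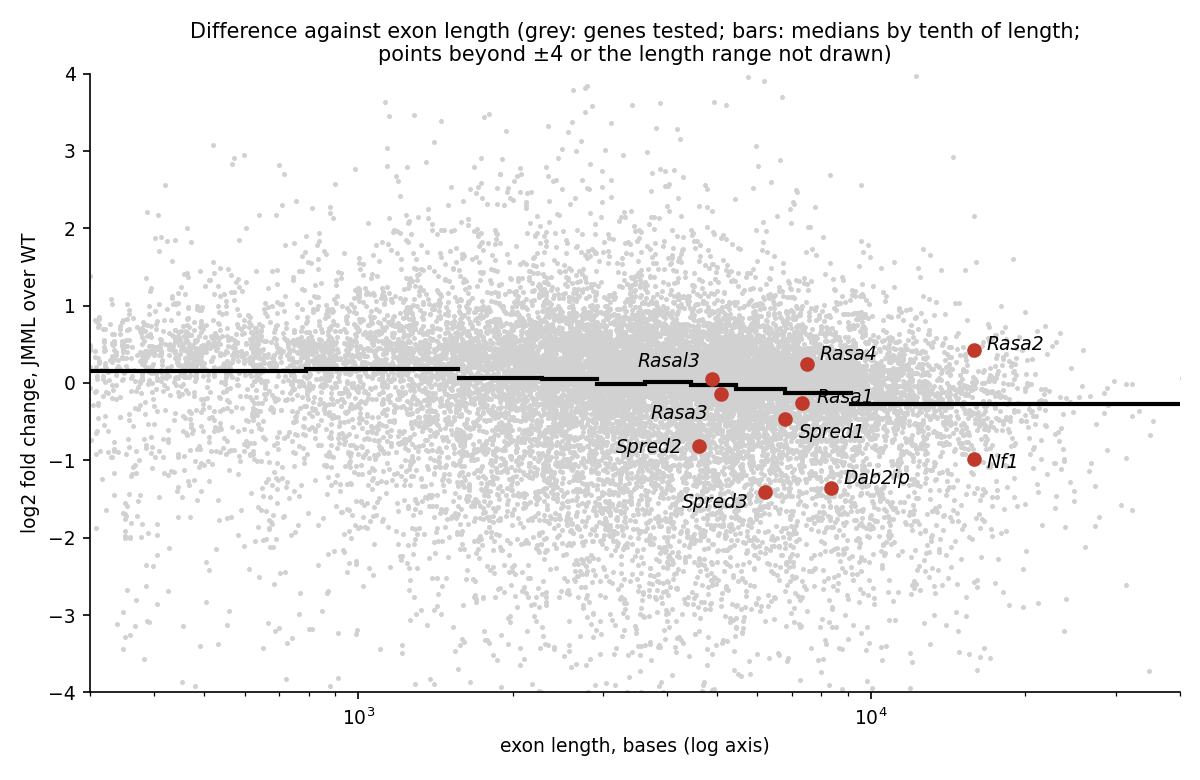
Log2 fold change, JMML over WT, against exon length (log axis) for genes tested (grey), with medians by decile of length (black bars) and the 10 genes in red. The median is lowest in the longest decile, −0.28, and Nf1 and Rasa2, at nearly the same union exon length, lie on opposite sides of theirs.

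Levels of different genes can be compared only per length, here as TPM, a length-scaled share of all transcripts in a library, over the union of exons. Rasa3 was the most abundant in both groups, at 33.9 ± 7.82 TPM in JMML and 44.5 ± 17.3 TPM in WT (SD, n = 3 each). In JMML it was followed by Rasal3 (11.9), Rasa1 (10.3), Spred1 (8.30), Rasa4 (5.78), Rasa2 (5.36), Spred2 (4.15), Nf1 (2.53), Dab2ip (0.866) and Spred3 (0.116). In WT the order was Rasa1 (15.6), Spred1 (14.4), Rasal3 (14.0), Spred2 (9.15), Nf1 (6.33), Rasa4 (5.88), Rasa2 (5.03), Dab2ip (2.73) and Spred3 (0.377). Neighbours from Rasal3 to Spred2 in JMML, from Rasa1 to Rasal3 in WT and from Spred2 to Rasa2 in WT overlapped over libraries, and the other steps did not. Nf1 thus stood at rank 8 in JMML and rank 6 in WT. TPM depends on the annotated length: with the longest transcript of each gene in place of all exons, Nf1 had rank 8 in both groups and Rasa2 moved up to 11.6 TPM in JMML and 10.9 TPM in WT. Group differences are given in CPM only.

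Nf1 hosts other genes in its introns on the opposite strand, and 3 of them, Evi2b, Evi2a and Evi2, were higher in JMML, while Omg was not called. Evi2b (79515056 to 79523762), a membrane protein gene of myeloid cells, had 129.9, 149.4 and 153.3 CPM in JMML, against 81.8, 89.1 and 88.6 CPM in WT. The groups did not overlap, and the log2 fold change was 0.74 ± 0.11 (adjusted p = 0.00501, edgeR), called in all 19 other settings. Evi2a (79526560 to 79530609) had 33.0, 23.1 and 27.6 CPM in JMML, against 17.1, 7.61 and 9.08 CPM in WT (1.305 ± 0.31, adjusted p = 0.0233). Its call was lost without JMML replicate 1 (1.18) or either of WT replicates 2 (1.09) and 3 (1.21), with the letter (1.29) and in the M libraries (1.32).

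The joint transcript Evi2 covers both and had 52.5, 18.0 and 45.6 CPM in JMML, against 8.28, 12.9 and 11.5 CPM in WT (1.83 ± 0.39, adjusted p = 0.0157, edgeR). Its call ended without WT replicate 2 (1.96, adjusted p = 0.0511) and with the replicate block (1.72, adjusted p = 0.0586). These 3 genes share sequence on 1 strand, so how reads were split among them is uncertain. Omg, a myelin gene, had at most 76 counts in any library and no call (0.04 ± 0.50, adjusted p = 0.958). No exonic base of Nf1 is shared with any of them.

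Other genes overlap the remaining members. Ccnh, a cyclin gene, shares 12 exonic bases with Rasa1 and was not called (0.11 ± 0.16, adjusted p = 0.646, edgeR), nor was Ggn, the neighbour of Spred3 (−0.72 ± 0.49, adjusted p = 0.305). Gm13446 shares 347 exonic bases with Dab2ip and had at most 9 counts in any library. An antisense locus of 635 shared bases at Rasal3 was not analysed here.

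**Figure D4:**
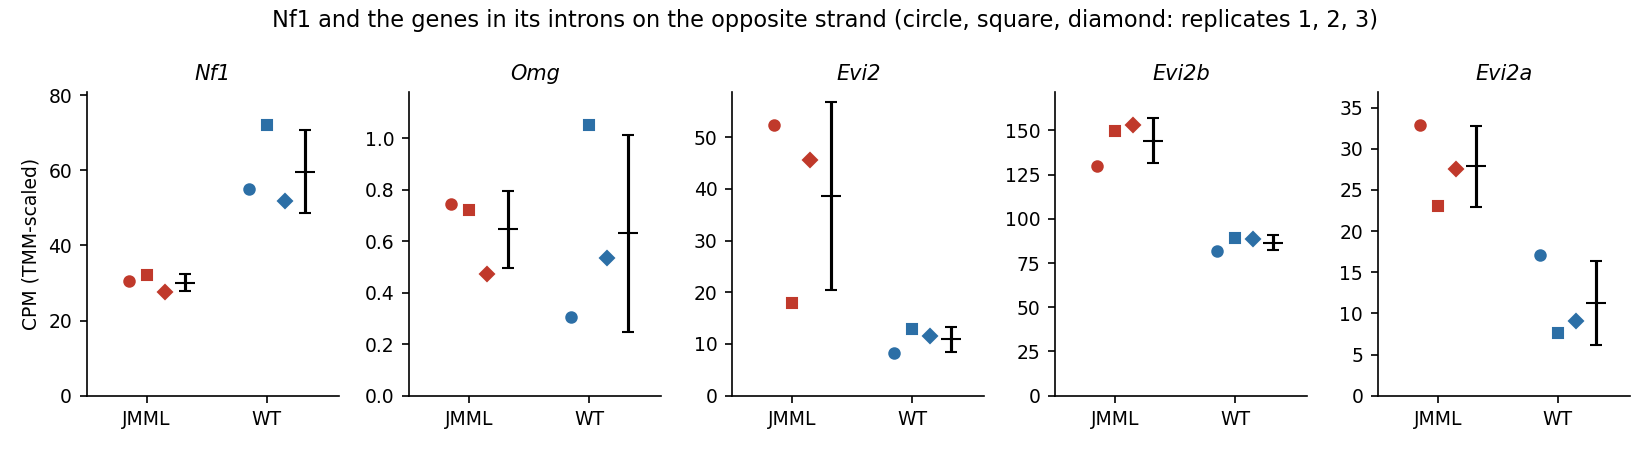
CPM in each library of Nf1 and of the genes inside its introns on the opposite strand, JMML left and WT right, with mean ± SD (n = 3 each). Nf1 is lower in JMML, Evi2, Evi2b and Evi2a are higher, and Omg stays near or under 1 CPM in every library.

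The other Ras GAPs and the wider pathway were read from the same fit. Over all pathway lists, 8 of 62 tested genes were higher and 9 lower, a share near the 12.4% higher and 13.8% lower of all genes tested, with a median log2 fold change of 0.02. The counts by role that follow are small and are given as descriptions. Rasal1 and Rasal2, further GAP genes, were not called (−0.67 for Rasal1 and −0.21 for Rasal2). Of the 3 IQGAP genes, scaffolds with a GAP-related domain, Iqgap1 was higher (0.53 ± 0.12, adjusted p = 0.0187). The Iqgap1 call ended without JMML replicate 2 (0.53) or either of WT replicates 1 (0.54) and 2 (0.52), with the letter, in the M libraries, with the block and with library totals alone (0.35), and its exon length of 16538 bases exceeds that of Nf1. The length offset moved Iqgap1 to 1.12003 as fitted and 0.89 centred, called higher in both. Of the Sprouty genes, relatives of Spred, 3 of 4 were tested and Spry1 was lower (−1.09 ± 0.26, adjusted p = 0.0237); this call ended without JMML replicate 2 (−1.12), JMML replicate 3 (−0.95) or WT replicate 3 (−0.78), under the block, and with the letter or among the M libraries.

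Upstream of Ras, 2 of 8 exchange factor genes were lower and none was higher. Rasgrp1, the exchange factor of lymphocytes, had 4.11, 5.66 and 5.72 CPM in JMML, against 12.2, 15.6 and 15.8 CPM in WT (−1.49 ± 0.20, adjusted p = 0.00420, edgeR), in all 19 other settings too. Sos1, the exchange factor used by most receptors, was lower (−0.68 ± 0.16, adjusted p = 0.0217), a call that ended without JMML replicate 1, JMML replicate 3 or WT replicate 2 (−0.66 to −0.52), with the letter, in the M libraries and with the length offset (−0.22 as fitted, −0.45 centred). Of 8 adaptor genes 2 were lower. Gab1, a docking protein, had a log2 fold change of −1.63 ± 0.29 (adjusted p = 0.00848) and was called in all 19 other settings, and Frs2 was at −0.73 ± 0.17 (adjusted p = 0.0194), a call lost without JMML replicate 3 (−0.67) or either of WT replicates 1 (−0.69) and 2 (−0.58), with the letter, in the M libraries and with the offset as fitted (−0.36).

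Rras2, a GTPase related to Ras, was lower at −1.23 ± 0.22 (adjusted p = 0.00956, edgeR; not called with the letter, −1.04, or in the M libraries, −1.004). Of 10 genes of the Raf, MEK and ERK cascade 2 were higher. Map2k1, which encodes MEK1, had 125.0, 150.9 and 157.5 CPM in JMML, against 70.3, 62.7 and 77.4 CPM in WT (1.04 ± 0.13, adjusted p = 0.00358), in all 19 other settings too. Mapk3, which encodes ERK1, was at 0.52 ± 0.09 (adjusted p = 0.00940; 0.34 and not called with library totals alone).

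Of 10 genes that ERK signalling often induces, 1 was higher and 1 lower. Etv4 was scarce, at 0.634, 1.95 and 0.539 CPM in JMML, against 0.308, 0.134 and 0.138 CPM in WT (2.41 ± 0.65, adjusted p = 0.0332, edgeR), and its call ended in 8 of 18 settings, among them on leaving out JMML replicate 2 (1.598) or either of WT replicates 2 (2.22) and 3 (2.25), with the letter (1.46) and in the M libraries (1.495). Myc was at −1.02 ± 0.17 (adjusted p = 0.00690; not called with the letter, −0.96, or in the M libraries, −0.92). Of 8 genes of Rap1 and its GAPs, listed because Rasa3 also acts on Rap1, 2 were higher. They were Sipa1l2 (0.85 ± 0.15, adjusted p = 0.00949; not called with the letter, 0.75, or in the M libraries, 0.78) and Rap1gap2 (0.56 ± 0.12, adjusted p = 0.0182). The Rap1gap2 call was lost by leaving out JMML replicate 3 (0.53) or either of WT replicates 1 (0.56) and 2 (0.51), with the letter, in the M libraries and with library totals alone (0.38).

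**Figure D5:**
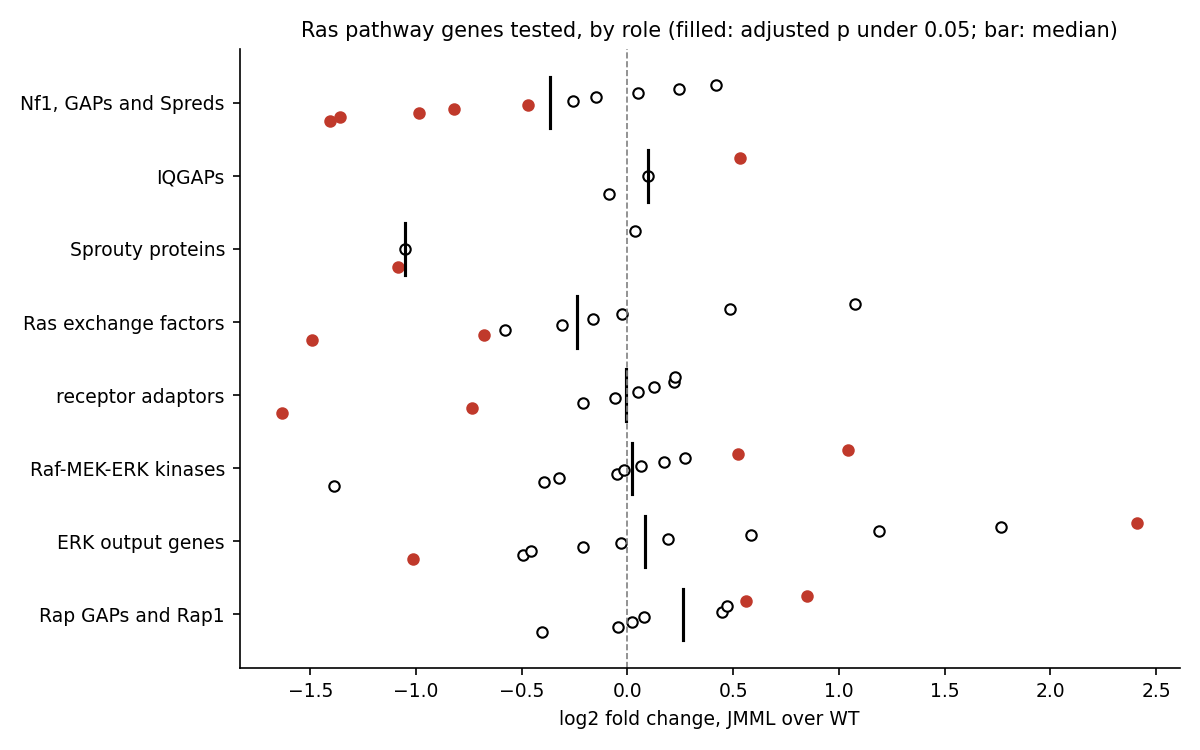
Log2 fold change, JMML over WT, of the tested genes of Ras pathway lists by role (filled: adjusted p under 0.05; bar: median of the list). The row of Nf1, GAPs and Spreds has its median at −0.36, and of the lists drawn only the ERK output genes have called genes on both sides.

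Markers of several cell types differed between the groups, and their part in the values above was not tested. All 10 B-cell markers, all 10 T-cell markers and all 10 megakaryocyte markers were lower in JMML. Their summed levels were 13.8 to 22.9 CPM in JMML against 150.9 to 565.5 CPM in WT for B cells, 14.6 to 25.4 against 52.4 to 85.8 CPM for T cells, and 18.9 to 39.6 against 321.9 to 1019 CPM for megakaryocytes. Of 10 erythroid markers 7 were lower (189.8 to 581.8 CPM in JMML, 1398 to 1870 CPM in WT), of 10 endothelial markers 8 were lower (62.1 to 101.1 CPM in JMML, 332.3 to 618.8 CPM in WT), and of 10 stem cell markers 8 were lower (169.5 to 180.1 CPM in JMML, 272.3 to 349.4 CPM in WT). Of 10 monocyte markers 7 were higher and 1 lower (2830 to 3744 CPM in JMML, 1446 to 1600 CPM in WT). Of 10 dendritic cell markers 6 were higher and 1 lower (245.0 to 276.7 CPM in JMML, 118.9 to 134.3 CPM in WT). Of 10 neutrophil markers 3 were higher (15928 to 27005 CPM in JMML, 8934 to 17890 CPM in WT), and of 7 NK-cell markers none was called (18.0 to 41.5 CPM in JMML, 18.2 to 24.6 CPM in WT). No marker was at 0 in every library of either group, and the labels name no sort or gate.

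The 3 protein-coding genes whose log2 CPM over the 6 libraries most resembled that of Nf1, among 10510 compared, were Arid2, Tmem131 and Rictor, with Pearson correlations of 0.998, 0.997 and 0.996. Of the genes compared, 275 had a correlation over 0.95, and the 6 libraries share the split into groups, so this is a description. These 3 genes were lower in JMML as well (−0.39 ± 0.10, −0.58 ± 0.11 and −0.58 ± 0.10; adjusted p = 0.0285, 0.0114 and 0.00835, edgeR), and their exon lengths of 10737, 9413 and 16930 bases put them in the longest decile with Nf1.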

How the data were processed

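Per the labels' protocols, total RNA was made into stranded libraries with a kit that removes ribosomal RNA. The authors deposited counts: whole numbers for each Ensembl identifier, not normalized. The submitters' processing notes name GRCm38 as the build, and list DESeq2 1.22.2, STAR 2.5.3a, StringTie 1.3.3b, Picard 2.0.1, bcl2fastq 2.18.0.12 and R 3.5.0 without their roles. The counter, annotation release and strand setting were not stated there. Among counts of 1 to 20, 51.6% to 58.8% were even, so both mates of a pair may have been counted.

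Of 46078 identifiers, 45229 (98.2%) matched GENCODE vM21, which gave symbols, positions and exon lengths. The test was that of edgeR 4.0.16 under R 4.3.3 (filterByExpr, TMM, quasi-likelihood F test, Benjamini-Hochberg, threshold 0.05). The SE is the absolute log2 fold change over the square root of F. The common biological coefficient of variation was 29.4%. One count was worth 0.00923 to 0.0212 CPM. The code of the fit was run on simulated counts with the same variation set for every gene, so that run does not cover the spread of these data. Alternatives used DESeq2 1.42.0, limma 3.58.1, other scalings and filters, the identifier letter, thinning, a loess length offset (span 0.5), and left-out libraries. The centred offset and the fit without the libraries of the shared prefix were added after the data were seen.

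The genes and lists were chosen with earlier results of these data known. Named are all 10 genes, up to 4 called genes per pathway list by p, genes overlapping a member that pass the filter, and the 3 genes most like Nf1. Cbl and Sos2 were added for their order of libraries, with their values seen. Some genes of the pathway lists are not reported here.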

Additional observations from a re-analysis of the deposited data

How the results depend on the processing

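No pairing by replicate number is stated. Deviations of same-numbered libraries from their group means correlated at −0.20, 0.05 and −0.14, and those of differently numbered libraries at −0.10 to 0.23. With 3 libraries per group these values cannot exclude a pairing. With the replicate block 2809 genes were called in place of 4737. Calls numbered 2219 with the identifier letter, 2310 in the M libraries, where the lone JMML library is assumed to vary like WT, 2864 without the pair sharing a prefix, and 2203 to 4003 without one library. Of the 10 genes, 1 was called lower with the length offset as fitted, against 9.85% of all genes tested. Without the pair sharing a prefix 3 were lower, against 1396 of 18363 genes tested. Without one library 2 to 4 were lower, against 1153 to 2048 of 18599 to 19666 genes tested. With DESeq2 size factors 1 of the 10 was higher, against 2223 of 18097 genes tested. It was also 1 with the DESeq2 Wald test, against 2729, and with limma-voom, against 2230. With no filter 1 was higher, against 2469 of 35514, and with thinning 1, against 2260 of 17018. With either length offset 1 was higher, against 20.9% of genes as fitted and 12.9% centred. Without one library 0 to 1 was higher, against 1050 to 1955 genes. Library totals alone gave 27.0% of calls as higher in place of 47.4%, and the offset as fitted 68.0%. Signs turned, always without a call, for Rasa1 (offset as fitted, 0.0602), Rasa3 (offset as fitted, 0.14; without the pair sharing a prefix, 0.34; −0.34 to 0.39 without one library), Rasa4 (without that pair, −0.0203), Rasal3 (library totals alone, −0.13; 50 counts in 3 libraries, −0.0071; −0.10 to 0.19 without one library), Ccnh (library totals alone, −0.0853; without that pair, −0.0560) and Omg (50 counts in 3 libraries, −0.0192; letter, −0.41; M libraries, −0.37; thinning, −0.17; library totals alone, −0.16; centred offset, −0.0292; −0.24 to 0.61 without one library). Of 190 values for the 10 genes, 144 kept direction and side of the threshold. Depth limits Spred3 most, at 28 to 94 counts. For every change named here the cause was not tested. Leaving out the pair sharing a prefix also ended the calls of Spred1, Spred3, Evi2, Evi2a, Iqgap1, Sos1, Spry1 (−0.68), Mapk3 and Etv4.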

Other observations

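Further ratios inside each library, chosen after values were seen, need no scaling. Evi2b had 4.26, 4.64 and 5.55 counts per count of its host Nf1 in JMML, against 1.49, 1.23 and 1.71 in WT, a log2 difference of 1.71. Spred2 had 0.319, 0.357 and 0.339 counts per count of Spred1 in JMML, against 0.432, 0.445 and 0.413 in WT, a log2 difference of −0.35. Nf1 had 0.459, 0.609 and 0.522 counts per count of Rasa1 in JMML, against 0.875, 0.954 and 0.770 in WT, a log2 difference of −0.71. In each of these 3 ratios the groups did not overlap, and the exact permutation test gave a two-sided p of 0.1, the smallest that 3 against 3 allows.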
